A study of Mus musculus with 2 samples.

Results

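The 33 genes described here encode enzymes that build, sulfate and break down chondroitin sulfate and related glycosaminoglycans. They were chosen by symbol, as a list that names linker, chain and sulfation enzymes together with lysosomal breakdown enzymes, and all 33 were found among the 32285 genes of the tables. By role, 6 build the linker, 6 start or extend the chain, 9 sulfate or epimerise it, 2 are extracellular sulfatases and 10 are breakdown enzymes. Expression was read by droplet single-cell RNA sequencing of cells taken out of scaffolds in a mouse skull defect.

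Both groups were female Balb/c mice aged 6 weeks, with no genotype given, in which a circular hole of 3.5 mm in the cranial bone was filled with a scaffold that carried no cells. The groups differed only in the scaffold, Gel100 or Gel50_CS50, and what these names stand for is not spelled out in the sources used here. At week 1 the scaffolds of 5 mice per group were pooled, so each group is 1 library and the mice of a pool cannot be told apart. The cells were freed with an enzyme mix that itself held chondroitinase and hyaluronidase, added as proteins that the assay does not read. After red cell lysis, viable cells were sorted and about 10000 were loaded per library.

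Glycosaminoglycans are long sugar chains that hang on the core proteins of proteoglycans. A linker of 4 sugars is set on a serine of the core protein, after which the chain grows as chondroitin sulfate or as heparan sulfate, and the chondroitin chain becomes dermatan sulfate where its glucuronic acid is epimerised. In bone and cartilage these chains bind water, growth factors and chemokines, and cells take them up and cut them down in lysosomes from the chain's end, sugar by sugar and sulfate by sulfate.

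Cells were grouped into classes by clusters and marker genes, with the 33 genes and 65 other genes of the wider pathway kept out of the clustering. The main classes held 3724 macrophages and monocytes in the Gel100 library and 3671 in the Gel50_CS50 library, 241 and 655 stromal cells (connective tissue cells with collagen genes), 579 and 901 neutrophils, 1097 and 508 T and NK cells, 367 and 312 conventional dendritic cells, and 416 and 258 plasmacytoid dendritic cells. The median cell held 12707 unique molecular identifiers (UMIs, counts of single RNA molecules) in Gel100 and 16509.5 in Gel50_CS50, over 7601 and 7206 kept cells, and 24 barcode sequences occurred in both libraries. Stromal cells were the deepest main class, with medians of 46391 and 53897 UMIs, and neutrophils the shallowest, with 4074 and 4310. The 10 stromal markers summed to 46088 and 48680 CPM (UMIs per 1000000 UMIs of the class) in stromal cells and to 92.2 and 186 CPM in macrophages, and the 12 macrophage markers summed to 24674 and 32486 CPM in macrophages and to 755 and 1009 CPM in stromal cells. Unnamed clusters held 14.1% and 10.52% of cells, among them 1 of 35 and 502 cells led by neutrophil genes that was left out of the neutrophils.

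Levels are given as CPM from the summed UMIs of a class in a library, in the order Gel100 and Gel50_CS50 unless the sentence says otherwise. Because each group is a single pooled library, no test between the scaffolds is possible. Where a ratio is given with a 95% interval, the interval covers counting error only. A gene is called measured in a class where its level averaged over the libraries is 10 CPM or more, and is counted as beyond 1.5-fold where the whole interval of its ratio lies past that limit. A level compares a gene between classes and not one gene with another. It is a share of the UMIs of the class and not a count per cell. Since the classes differ in UMIs per cell, an order by level need not hold per cell.

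Promoter sequences were matched for 28 of the 33 genes in the RefSeq table of build GRCm38.p6, as the 250 bases before the annotated start. Those of 4 genes are shown because the genes stand at opposite ends of the class pattern below: Hexa and Gusb, breakdown genes highest in macrophages, and Dsel and Chpf, synthesis genes highest in stromal cells. They are written 5′ to 3′ on the strand of the gene, and capitals mark the GC box GGGCGG or its reverse complement CCGCCC. They lie at chr9:59539290-59539539 on the plus strand (Hexa), chr5:130003050-130003299 on the minus strand (Gusb), chr1:111864919-111865168 on the minus strand (Dsel) and chr1:75479472-75479721 on the minus strand (Chpf).
Hexa: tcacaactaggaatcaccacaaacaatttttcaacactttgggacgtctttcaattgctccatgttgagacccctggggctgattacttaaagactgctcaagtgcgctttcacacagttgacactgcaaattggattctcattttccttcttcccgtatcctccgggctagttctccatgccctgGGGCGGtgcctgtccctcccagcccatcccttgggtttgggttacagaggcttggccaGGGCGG
Gusb: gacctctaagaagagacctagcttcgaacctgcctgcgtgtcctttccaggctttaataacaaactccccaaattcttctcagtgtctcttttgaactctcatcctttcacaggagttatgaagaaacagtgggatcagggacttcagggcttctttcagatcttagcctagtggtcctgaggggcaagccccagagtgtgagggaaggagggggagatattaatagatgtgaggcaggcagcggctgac
Dsel: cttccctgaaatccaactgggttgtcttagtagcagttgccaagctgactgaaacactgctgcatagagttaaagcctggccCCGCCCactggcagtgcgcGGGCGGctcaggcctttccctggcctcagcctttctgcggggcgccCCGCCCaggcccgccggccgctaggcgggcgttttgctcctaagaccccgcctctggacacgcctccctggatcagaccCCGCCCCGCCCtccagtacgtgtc
Chpf: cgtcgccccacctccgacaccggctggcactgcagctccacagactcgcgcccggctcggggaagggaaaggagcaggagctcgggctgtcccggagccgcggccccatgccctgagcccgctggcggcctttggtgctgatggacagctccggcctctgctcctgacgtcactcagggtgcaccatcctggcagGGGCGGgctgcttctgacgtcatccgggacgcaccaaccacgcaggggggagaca

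The GC box stood in 20 of the 28 promoters, on either strand, against 32.9% of all 27025 promoters in the table. It was found in 14 of the 18 synthesis promoters and in 5 of the 9 breakdown promoters. The E-box CACGTG stood in 4 of the 28 (Chst14, Chsy1, Naglu and Sgsh) against 6.05% of all, and its extended form TCACGTGA, which contains it, in 0 against 0.803%. TATAAA was found in 1 promoter, that of Sulf2, against 12.97% of all promoters. The sequences TGAGTCA, bound by AP-1, and GAGGAAGT, a PU.1 core, were found in 0 of the 28, against 4.43% and 2.44% of all. Of the 4 promoters shown, Dsel has 5 GC boxes, Chpf 1, Hexa 2 and Gusb 0. The letters are a description of these windows and no binding was measured.

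Where the genes were highest among the 6 main classes hardly differed between the scaffolds. For 30 of the 33 genes the main class with the highest level was the same in both libraries, and for 24 of these the interval against the next class also excluded equality in both. Stromal cells led for 9 genes, 7 of them for synthesis and the other two the extracellular sulfatases Sulf1 and Sulf2. Macrophages and monocytes led for 11 genes, 9 of them for breakdown. Neutrophils (Xylt1, Chst11 and Chst15), T and NK cells (B3gat3, Chsy1 and Arsb) and plasmacytoid dendritic cells (Fam20b, Chst3 and Chst12) led for 3 each, and conventional dendritic cells for Chst7. The class differed between libraries for B4galt7, Chsy3 and Ust. No matching counts over all genes are given here, so none of these counts is shown to be particular to the 33 genes. Once the 3 small classes, endothelial cells, pericytes or smooth muscle cells and mast cells or basophils, were compared too, 22 genes kept 1 class in both libraries and stromal cells led for 4, and below "highest" refers to the main classes. When cells were thinned to 3000 UMIs each and ranked by the share of cells with a UMI, 28 genes had the same leading class in both libraries.

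**Figure D1:**
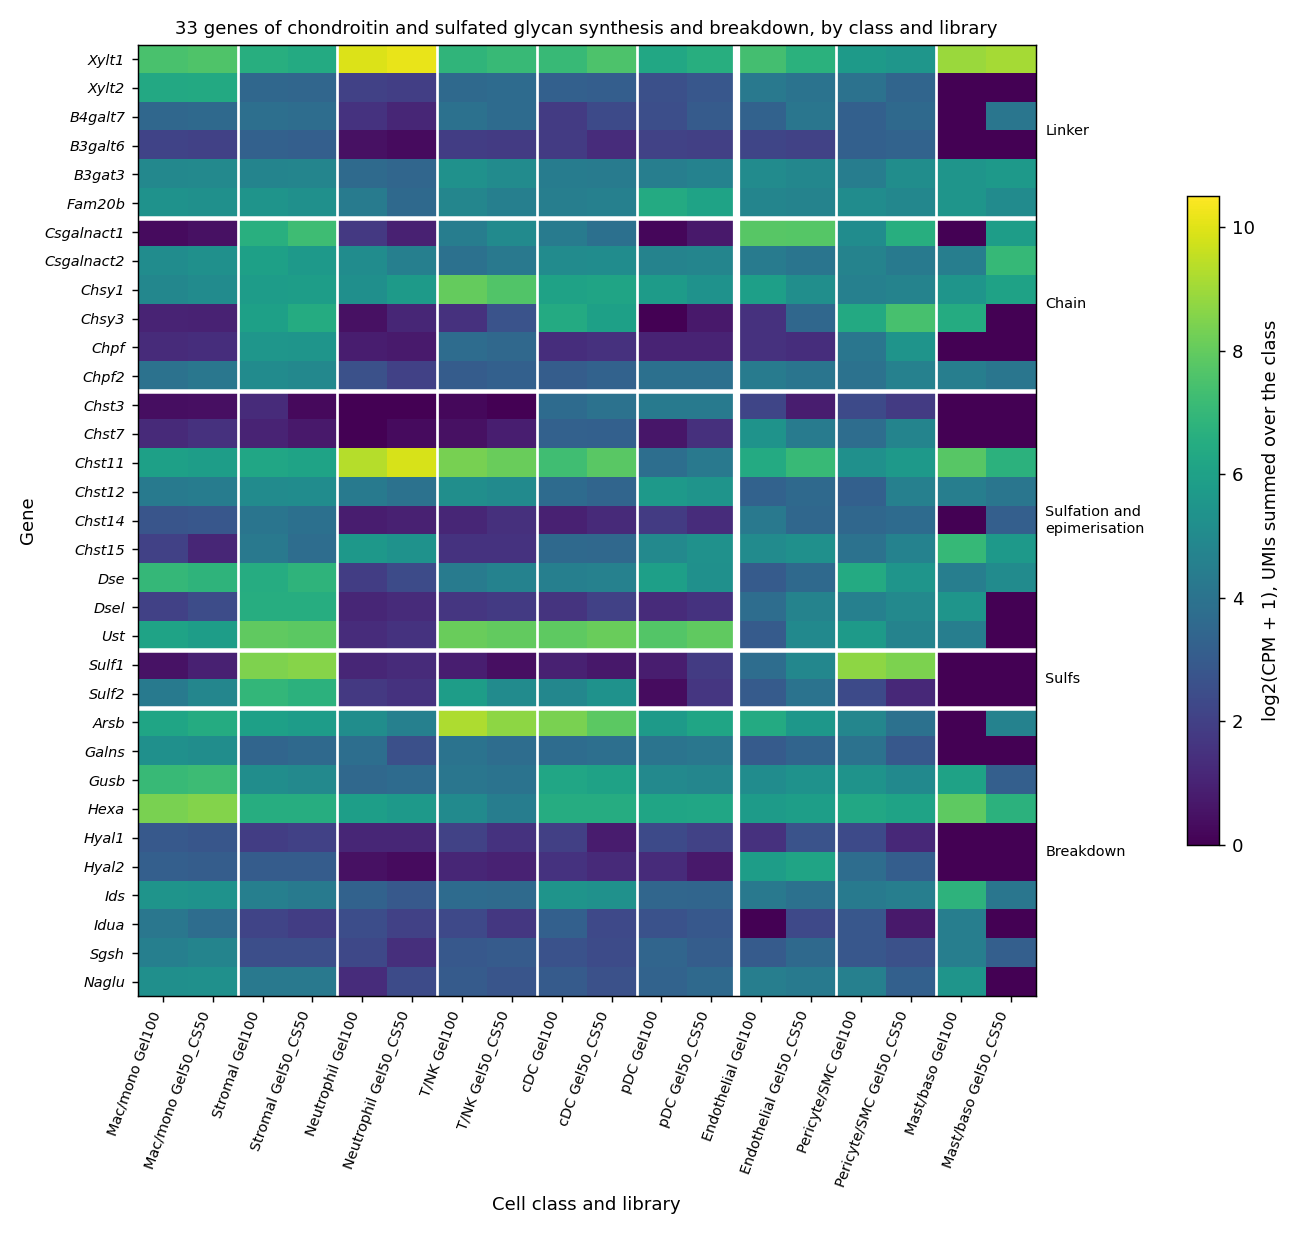
Heat map of log2(CPM + 1) for the 33 genes (rows, grouped by role) in 9 classes and 2 libraries (columns). The 3 small classes at the right hold 14 to 64 cells per library. Sulf1 is bright in stromal cells and pericytes, Xylt1 and Chst11 in neutrophils, Arsb in T and NK cells, and Hexa and Gusb in macrophages and monocytes.

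Stromal cells and macrophages differed in chain building, in the extracellular sulfatases and in breakdown. Of 26 genes with a mean of 10 CPM or more over both classes and libraries, 11 were higher in stromal cells beyond 1.5-fold in both libraries. The background was 28.9% of all genes with that mean, and 8 genes were lower, against 20.4%. Csgalnact1, Chsy3, Chpf, Dsel, Chst14 and Sulf1 reached that mean only through their stromal level, and Sgsh only through its macrophage level. The limit thus fixed the direction of these genes in advance. The counts and medians below include them, so the uneven counts by role are in part set by the limit. The genes higher in stromal cells that did not depend on it were Chsy1, Chpf2, Chst12, Ust and Sulf2. The counts by role were uneven: 5 of 6 chain genes, 4 of 6 measured sulfation and epimerase genes and both extracellular sulfatases were higher in stromal cells, and 6 of 7 measured breakdown genes and 2 of 5 measured linker genes were lower. The median log2 ratio of stromal cells over macrophages was 3.04 and 2.80 for the chain genes, 6.17 and 5.29 for the 2 extracellular sulfatases and -1.86 and -1.67 for the breakdown genes. Over all 9175 genes measured it was 0.20 and 0.18.

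The linker enzymes act first. Xylt1, a xylosyltransferase that sets the first sugar on the core protein (chr7:117380979-117673580, plus strand, mm10), stood at 995 and 1140 CPM in neutrophils. Its next highest main class was macrophages and monocytes, at 180 and 193 CPM, a difference of 5.52 and 5.92-fold per UMI. Neutrophils held fewer UMIs per cell, and counts per cell lay closer together. They were 2567 and 4834 UMIs over 579 and 901 neutrophils, and 11339 and 14602 over 3724 and 3671 macrophages and monocytes. In stromal cells they were 1049 and 3161 UMIs over 241 and 655 cells. A Xylt1 UMI was found in 75.6% and 78.0% of neutrophils thinned to 3000 UMIs, against 31.9% and 34.1% of macrophages thinned in the same way. Xylt2, which does the same step, was highest in macrophages and monocytes, at 80.2 and 81.5 CPM, and stood at 10.4 and 10.1 CPM in stromal cells.

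Fam20b, the kinase that phosphorylates the linker xylose, was highest in plasmacytoid dendritic cells, at 85.6 and 67.2 CPM, and stood at 42.7 and 37.7 CPM in stromal cells. B3gat3, the glucuronosyltransferase that completes the linker, lay between 9.91 and 38.2 CPM in all 6 main classes and both libraries. The galactosyltransferases gave low counts: B4galt7 reached at most 14.3 CPM in the main classes, in T and NK cells of Gel100, and B3galt6 at most 8.46 CPM, in stromal cells of Gel100.

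Chain genes separated the classes. Csgalnact1, which adds the sugar that commits a linker to chondroitin (chr8:68356781-68735146, minus strand), stood at 97.3 and 151 CPM in stromal cells. In macrophages it stood at 0.239 and 0.370 CPM, on only 15 and 28 UMIs. The classes lay 408 and 409-fold apart, with wide log2 intervals of 7.94 to 9.51 and 8.14 to 9.27. The 10 stromal markers summed to 92.2 and 186 CPM in macrophages, and the part of stromal RNA in the macrophage level of Csgalnact1 was not tested. Csgalnact2, the partner of Csgalnact1, stood at 61.5 and 50.1 CPM in stromal cells and at 33.02 and 37.3 CPM in macrophages. Csgalnact1 therefore took 61.3% and 75.1% of the UMIs of the pair in stromal cells, 0.717% and 0.981% in macrophages and 0.532% and 2.36% in plasmacytoid dendritic cells. In the small endothelial class it took 91.7% and 93.1%.

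The chondroitin synthases were split in another way. Chsy1, which extends the chain, was highest in T and NK cells, at 257 and 199 CPM, and Chsy3, a second synthase, in conventional dendritic cells of Gel100 and stromal cells of Gel50_CS50 among the main classes. Chsy3 stood at 84.4 and 60.8 CPM in conventional dendritic cells and at 62.1 and 86.6 CPM in stromal cells, and the interval between these classes excluded equality in both libraries. Chsy3 stood at 1.07 and 0.990 CPM in macrophages, and plasmacytoid dendritic cells of Gel100 had 0 UMIs of it, which allows up to 0.400 CPM. Chsy1 took 96.4% and 97.0% of the pair's UMIs in macrophages, 46.6% and 39.6% in stromal cells and 43.9% and 53.3% in conventional dendritic cells.

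Chpf, a factor the synthases need for polymerisation, stood at 44.2 and 43.9 CPM in stromal cells and at 1.45 and 1.57 CPM in macrophages. Chpf2, a related factor, stood at 32.1 and 29.3 CPM in stromal cells and at 14.5 and 16.9 CPM in macrophages. The share of Chpf in this pair was 57.9% and 59.99% in stromal cells, 62.4% and 56.2% in T and NK cells and 9.06% and 8.51% in macrophages. In 8 of the 9 enzyme pairs examined, the interval of the share in stromal cells lay clear of that in macrophages in the same direction in both libraries. The exception was Chst3 with Chst7. No other gene pairs were read as a background, and the count holds small shifts beside large ones. Chst11, paired with Chst12, took 76.5% and 73.6% in macrophages and 69.1% and 66.8% in stromal cells.

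**Figure D2:**
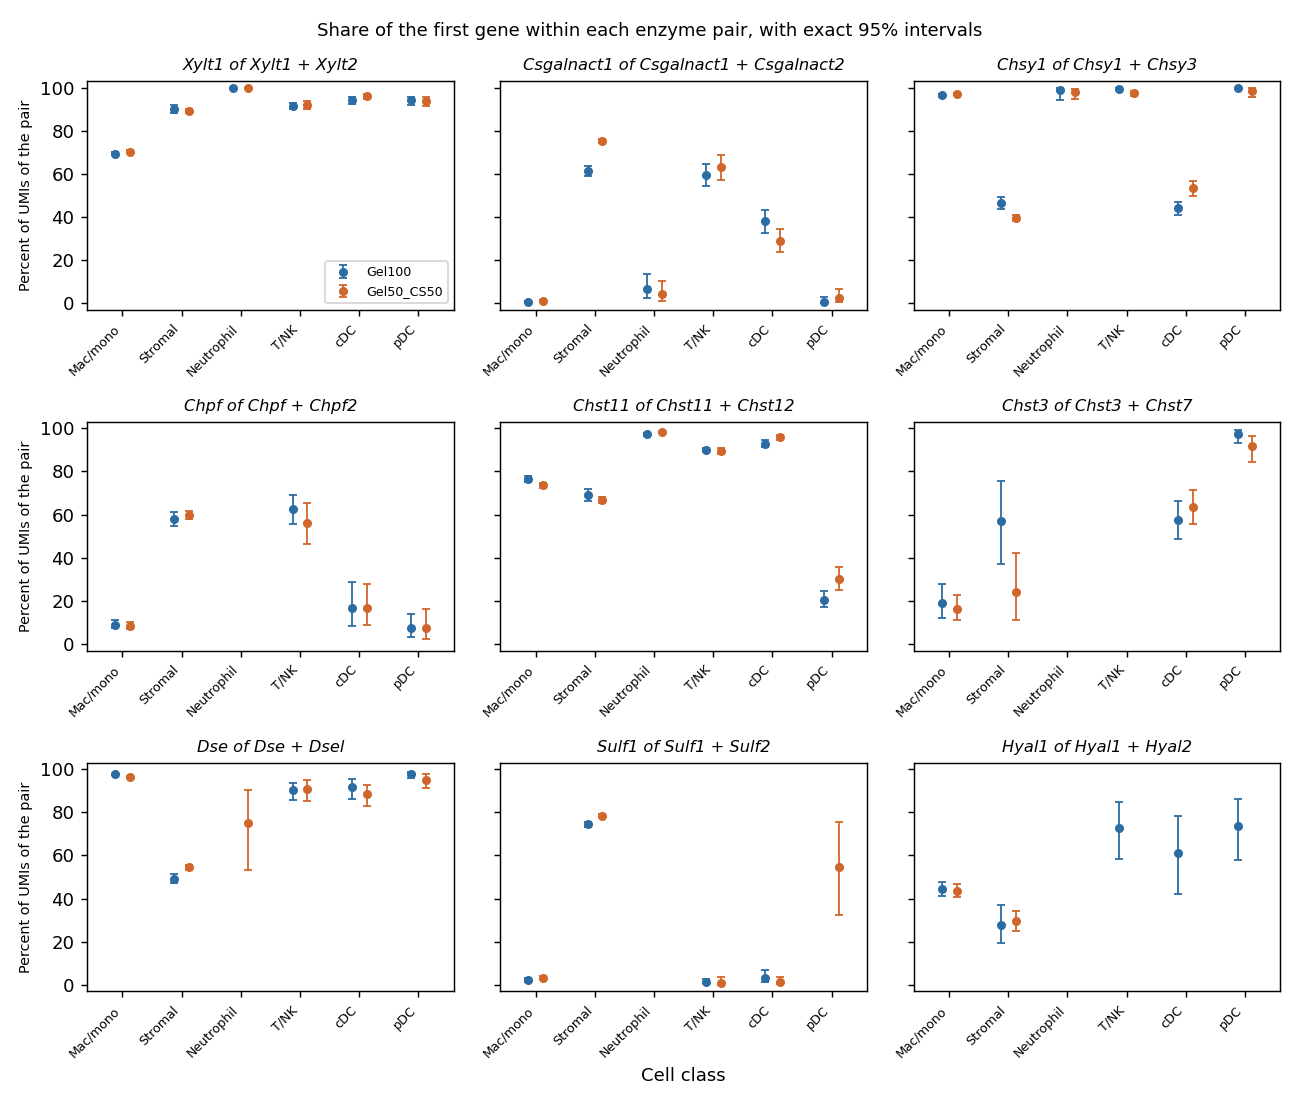
Percent of UMIs that belong to the first gene of each of 9 enzyme pairs, by class and library, with exact 95% intervals. Points are left out where a pair had fewer than 20 UMIs. Csgalnact1, Chpf and Sulf1 take larger shares in stromal cells than in macrophages, and Chsy1 and Dse smaller ones.

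Sulfation of the chondroitin chain at its 4 and 6 positions was read from 2 pairs of sulfotransferases. Chst11, a 4-O-sulfotransferase (chr10:82985498-83195900, plus strand), stood at 646 and 922 CPM in neutrophils, and at 326 and 275 CPM in T and NK cells. In stromal cells it stood at 72.9 and 67.8 CPM and in macrophages at 61.6 and 56.7 CPM, so the interval of neither ratio between these classes reached 1.5-fold. Chst12, which acts at the same position, was highest in plasmacytoid dendritic cells, at 49.5 and 42.0 CPM. Chst11 took 97.1% and 98.4% of this pair's UMIs in neutrophils and 20.6% and 30.1% in plasmacytoid dendritic cells, the lowest share among the main classes. A UMI of Chst11 was found in 74.3% of thinned neutrophils in Gel50_CS50 and in 2.75% of thinned plasmacytoid dendritic cells there.

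The 6-O-sulfotransferases Chst3 and Chst7 were scarce in most classes. Chst3 stood at 11.7 and 14.4 CPM in conventional and at 18.8 CPM, in both libraries, in plasmacytoid dendritic cells. In macrophages it stood at 0.318 and 0.356 CPM and in stromal cells at 1.44 and 0.213 CPM, from 16 and 8 UMIs. Neutrophils had 0 UMIs of Chst3, which allows up to 1.16 and 0.708 CPM, and 0 and 1 UMI of Chst7. Chst7 was highest in conventional dendritic cells among the main classes, at 8.58 and 8.19 CPM.

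Dermatan sulfate is made by the epimerases Dse and Dsel, with Chst14 adding its 4-O-sulfate. Dsel (chr1:111858702-111864918, minus strand) stood at 91.3 and 92.9 CPM in stromal cells and at 3.09 and 4.37 CPM in macrophages, 29.6 and 21.3-fold apart. Dse stood at 88.6 and 111 CPM in stromal cells and at 125 and 113 CPM in macrophages, and took 49.2% and 54.5% of the pair's UMIs in stromal cells against 97.6% and 96.3% in macrophages. Chst14 was highest among the main classes in stromal cells, at 16.01 and 13.8 CPM, against 5.90 and 6.11 CPM in macrophages.

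Chst15, which adds a 6-sulfate to a residue that already carries a 4-sulfate, stood at 46.9 and 40.1 CPM in neutrophils, 29.8 and 39.3 in plasmacytoid dendritic cells, 18.2 and 12.5 in stromal cells and 3.12 and 1.17 in macrophages. Ust, the 2-O-sulfotransferase for the uronic acid, was high in 4 classes: 276 and 248 CPM in T and NK cells, 244 and 230 in stromal cells, 203 and 246 in plasmacytoid and 237 and 277 in conventional dendritic cells. The highest of these was T and NK cells in Gel100 and conventional dendritic cells in Gel50_CS50, each with an interval clear of the next class. Neutrophils had 1.55 and 1.89 CPM of Ust.

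Extracellular sulfatases trim 6-O-sulfate from heparan sulfate outside the cell. Sulf1 (chr1:12692277-12861192, plus strand) stood at 353 and 382 CPM in stromal cells. No other main class passed 2.56 CPM, a level seen in plasmacytoid dendritic cells of Gel50_CS50. With cells thinned to 3000 UMIs, 52.0% and 55.7% of stromal cells had a Sulf1 UMI, against 0.203% and 0.303% of macrophages, and without thinning 85.9% and 98.0% against 0.644% and 1.96%. The low macrophage level went from 0.429 CPM in Gel100 to 0.964 CPM in Gel50_CS50 while the summed stromal markers in macrophages went from 92.2 to 186 CPM, and the part of stromal RNA in it was not tested. Sulf2 stood at 121 and 105 CPM in stromal cells, 57.0 and 32.0 in T and NK cells and 19.2 and 27.2 in macrophages.

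Breakdown genes had the reverse pattern in CPM, that is per UMI. Macrophages held medians of 16382.5 and 18989 UMIs per cell, against 46391 and 53897 in stromal cells. In Gel100 Hexa had 20869 UMIs over 3724 macrophages and monocytes and 1017 over 241 stromal cells, more per macrophage. Naglu had 2302 and 200 UMIs over the same cells, fewer per macrophage. Hexa, the alpha subunit of lysosomal beta-hexosaminidase (chr9:59539540-59565109, plus strand), stood at 332 and 378 CPM in macrophages and monocytes and at 91.5 and 93.4 CPM in stromal cells. Gusb, the lysosomal beta-glucuronidase, stood at 133 and 145 CPM against 34.1 and 29.7. Galns, which removes 6-sulfate, stood at 37.6 and 34.8 CPM in macrophages against 9.63 and 10.9 in stromal cells. The iduronate enzymes of dermatan and heparan sulfate breakdown were also highest in macrophages: Ids, the 2-sulfatase, at 42.5 and 39.6 CPM, and Idua, the iduronidase, at 17.02 and 12.6 CPM. The interval did not separate Ids from conventional dendritic cells, at 42.1 and 38.8 CPM, in either library.

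Sgsh and Naglu, which act on heparan sulfate, stood at 22.4 and 25.7 CPM and at 36.6 and 37.7 CPM in macrophages. In stromal cells Sgsh stood at 4.68 and 4.71 CPM and Naglu at 17.99 and 17.7 CPM. The hyaluronidases, which also cut chondroitin, gave few counts in the main classes. Hyal1, a lysosomal form, reached 6.57 CPM in macrophages of Gel100, and Hyal2, a form anchored at the cell surface, reached 8.16 CPM there, with intervals that did not separate Hyal2 from stromal cells at 7.29 and 7.34 CPM. Hyal1 shares exons on its strand with Naa80 and Hyal3, so its counts are uncertain. Endothelial cells, with 64 and 56 cells, had 57.1 and 69.5 CPM of Hyal2.

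Arsb stood apart from the other lysosomal genes. This enzyme, which removes 4-sulfate from chondroitin and dermatan sulfate (chr13:93771630-93943016, plus strand), was highest in T and NK cells, at 594 and 418 CPM, then in conventional dendritic cells, at 330 and 228 CPM. Macrophages had 70.5 and 87.4 CPM and stromal cells 61.6 and 54.1 CPM. A UMI of Arsb was found in 54.8% and 43.1% of T and NK cells thinned to 3000 UMIs, against 5.85% and 4.18% of thinned neutrophils. The exons of Arsb overlap a gene on the other strand, as do those of 8 other members, and the sources used here do not say whether counting used the strand.

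Counted by step, no main class had every step at 10 CPM or more in both libraries. Stromal cells had 12 of the 14 synthesis steps and 5 of the 10 breakdown enzymes. Macrophages and monocytes had 10 and 8, T and NK cells 10 and 5, conventional dendritic cells 10 and 5, plasmacytoid dendritic cells 11 and 4, and neutrophils 6 and 3. The steps under the limit in stromal cells were the B3galt6 step and 6-O-sulfation, and those in macrophages also included Chst14 and Chst15. Neutrophils are the shallowest of the main classes, at 2579855 and 4239290 UMIs in all. Among the small classes, pericytes or smooth muscle cells had 12 and 4, endothelial cells 11 and 6 and mast cells or basophils 9 and 2. Over all genes, those with a mean of 10 CPM or more also differed in number. There were 9229 in stromal cells, 7880 in macrophages and monocytes and 5426 in neutrophils. The step counts are therefore not shown to be particular to this pathway.

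Within macrophages and monocytes the breakdown genes varied by cluster. In the cluster led by Spp1 and Gpnmb (330 and 363 cells), Hexa stood at 657 and 618 CPM, Gusb at 225 and 240, Naglu at 81.0 and 77.2 and Arsb at 157 and 97.3. In the cluster led by the monocyte gene Chil3 (368 and 379 cells), Hexa stood at 113 and 134 CPM, Gusb at 63.3 and 74.1, Naglu at 7.96 and 8.41 and Sgsh at 5.58 and 6.13. Naglu thus spanned 10.2-fold over the 9 clusters in Gel100 and 9.18-fold in Gel50_CS50, and Hexa 5.81 and 4.61-fold. Sgsh was highest in the cluster led by Mrc1 and Ccl8, at 48.2 and 49.8 CPM.

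The synthesis genes followed other clusters. Xylt1 stood at 346 and 432 CPM in the Chil3 cluster and at 357 and 252 CPM in the cluster led by Mmp12 (85 and 75 cells), and was lowest in the cluster led by Fcrls and Cd72, at 44.2 and 37.7 CPM. The Fcrls cluster had the highest Xylt2, at 145 and 166 CPM, and the highest Ust, at 186 and 187 CPM. Chst11 was highest in the Mmp12 cluster, at 422 and 344 CPM, against 12.7 and 9.88 CPM in the Mrc1 cluster. These clusters did not make up the same share of the class in both libraries: the Ifit1bl1 cluster held 33.8% of the class in Gel100 and 4.96% in Gel50_CS50, and the Arg1 cluster 2.74% and 24.8%.

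**Figure D3:**
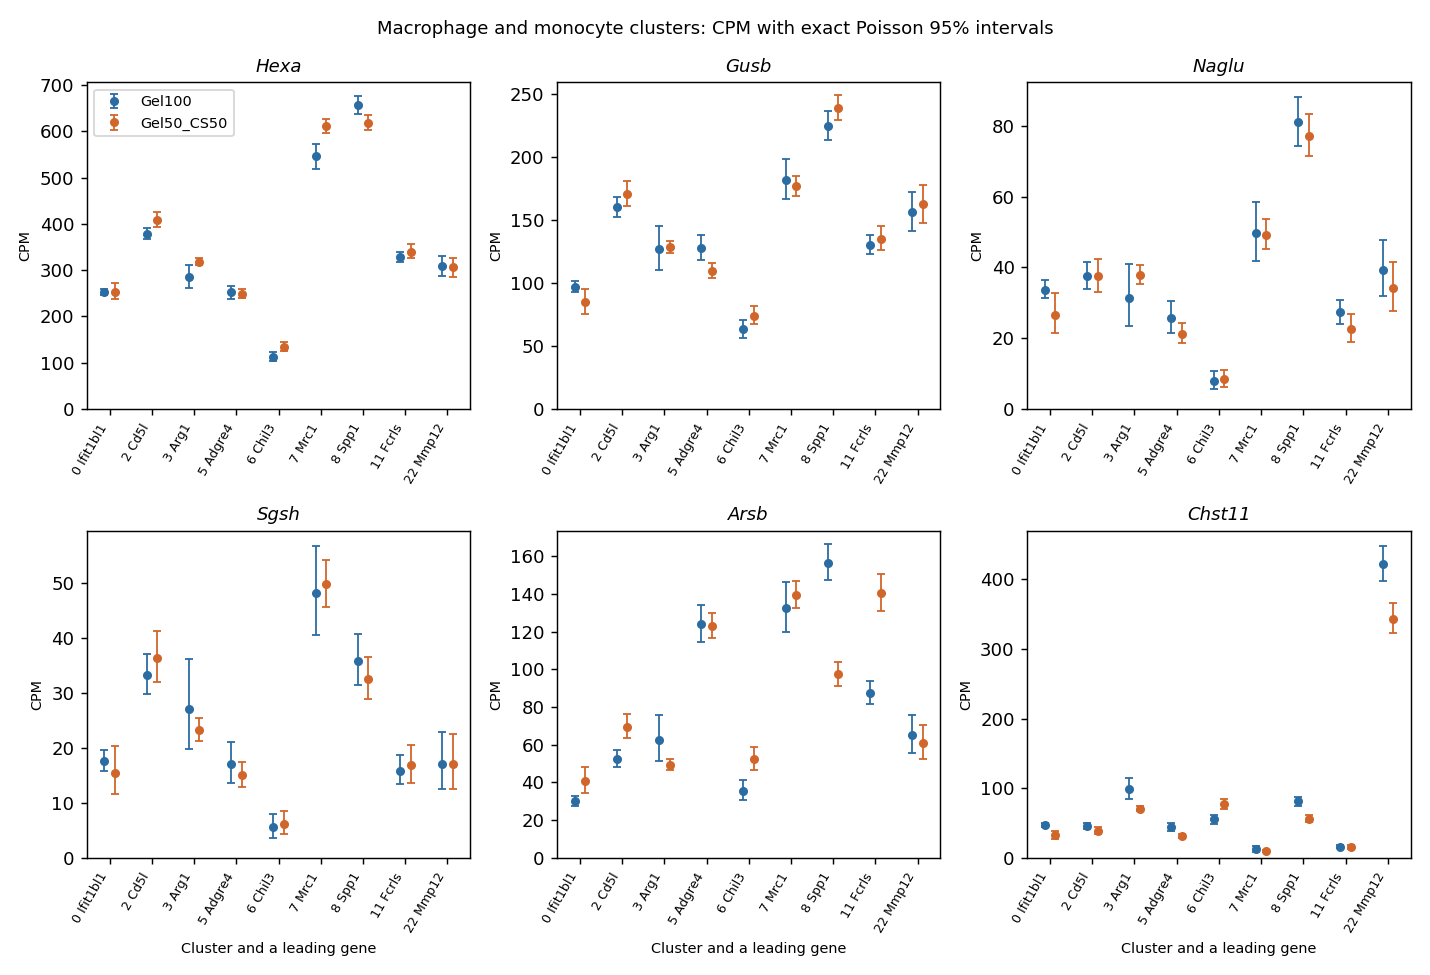
CPM of 6 genes in the 9 macrophage and monocyte clusters (horizontal axis, cluster number and a leading gene), with exact Poisson 95% intervals, for both libraries. Hexa, Gusb and Naglu are highest in the Spp1 cluster and lowest in the Chil3 cluster, with the libraries close together, while Arsb stands apart between the libraries in the Spp1 cluster (157 and 97.3 CPM) and the Fcrls cluster (87.7 and 141 CPM).

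Other classes were also split inside. NK cells, in the cluster led by Ncr1, had 935 and 793 CPM of Arsb, 394 and 369 of Chsy1 and 99.5 and 64.5 of Sulf2, while the T cell cluster led by Cd40lg had 109 and 130, 104 and 93.7, and 10.0 and 9.17. Csgalnact1 stood at 78.2 and 51.9 CPM in the T cell cluster led by Foxp3 and at 68.4 and 80.05 CPM in that led by Il17a, against 6.94 and 15.8 CPM in NK cells. Among dendritic cells, the cluster led by Xcr1 had 220 and 211 CPM of Chsy3 and 613 and 498 of Arsb, and the cluster led by Ccr7 had 1.90 and 1.26 and 58.1 and 44.9. The cluster led by Mgl2 and Cd209a lay between them, with 16.3 and 15.7 CPM of Chsy3 and 249.7 and 184 of Arsb. The Ccr7 cluster had 44.9 and 45.5 CPM of Chst3 and 401 and 596 of Chst11, and the Xcr1 cluster had 0 UMIs of Chst3 in both libraries and 36.8 and 98.1 CPM of Chst11.

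Stromal cells fell into 2 clusters. The one led by Dpt and Clec3b had 114 and 183 CPM of Csgalnact1, 102.96 and 111 of Dsel and 375 and 406 of Sulf1. The one led by Eln and Igf2 had 42.1 and 79.9, 51.6 and 51.4, and 280 and 328. Chsy1 was higher in the Eln cluster, at 80.9 and 86.1 CPM against 46.3 and 43.7. The Dpt cluster held 72.6% and 67.2% of the class.

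**Figure D4:**
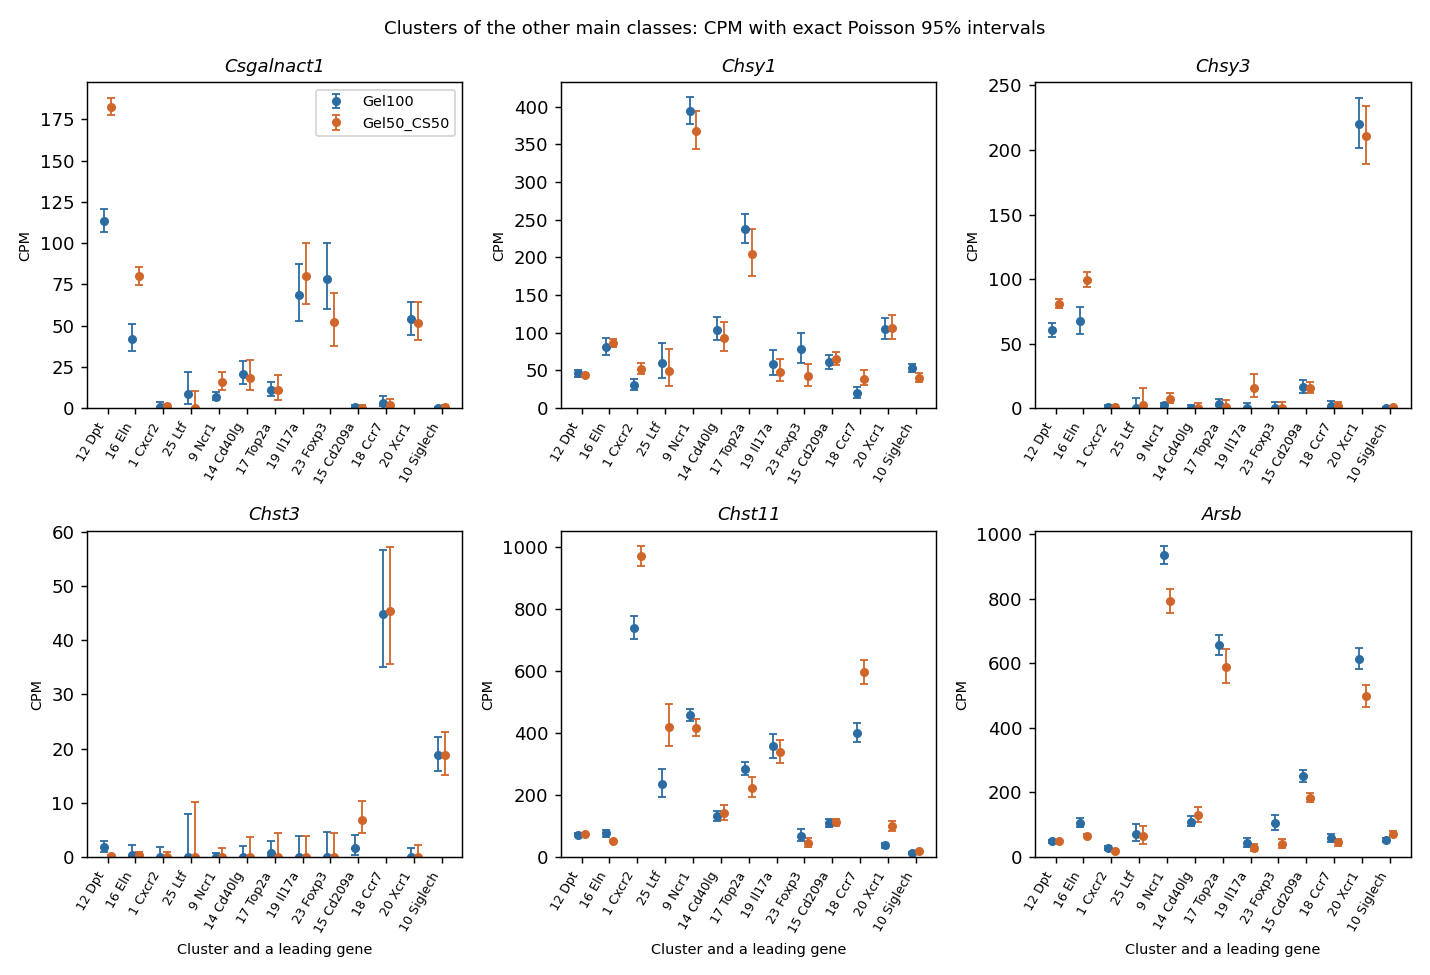
CPM of 6 genes in the clusters of the other main classes (horizontal axis, cluster number and a leading gene), with exact Poisson 95% intervals, for both libraries. Chsy3 is highest in the Xcr1 dendritic cluster, Chst3 in the Ccr7 dendritic cluster, Arsb and Chsy1 in NK cells, and Csgalnact1 in the Dpt stromal cluster.

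Between the scaffolds, hardly any of the 33 genes moved beyond 1.5-fold. In macrophages and monocytes 0 of 21 measured genes did, where 5.74% of all genes measured did. In stromal cells it was 0 of 26, where 3.01% of all genes did, in neutrophils 0 of 11 (4.83%), in T and NK cells 1 of 19 (1.92%), in conventional dendritic cells 0 of 19 (3.02%) and in plasmacytoid dendritic cells 0 of 17 (1.22%). With 11 to 26 members measured per class, these counts do not stand apart from the background. A ratio short of 1.5-fold is not shown to be equality, and the intervals of many members excluded 1.

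In macrophages the median log2 ratio of Gel50_CS50 over Gel100 was 0.06 over the 12 measured synthesis genes and 0.09 over the 8 measured breakdown genes, against -0.02 over all 7880 genes measured, of which 1.99% were higher and 3.74% lower beyond 1.5-fold. Sulf2 had the highest ratio, from 19.2 to 27.2 CPM (0.50, 0.40 to 0.61). Arsb followed at 70.5 and 87.4 CPM (0.31, 0.26 to 0.37), and the lysosomal genes Sgsh, Hexa and Gusb had ratios of 0.20, 0.19 and 0.13 with intervals above 0. Ratios below 0 were those of Idua, from 17.02 to 12.6 CPM (-0.43, -0.56 to -0.30), Ust, from 67.8 to 56.2 CPM (-0.27, -0.33 to -0.21), Dse (-0.14), Chst11 and Fam20b (each -0.12), Galns (-0.11) and Ids (-0.10).

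The chain genes measured in macrophages all lay above 0, with Chpf2 at 0.22, Chsy1 at 0.21 and Csgalnact2 at 0.18. Chst12 stood at 0.11, Xylt1 at 0.10, B4galt7 at 0.09, Naglu at 0.04, and Xylt2 and B3gat3 at 0.02. The mix of clusters was not the same in the libraries, and these ratios moved with it: where both libraries were given one common mix of clusters, that of Sulf2 was 0.14 and the median of the breakdown genes was -0.063. The synthesis median was -0.12 over genes of at least 50 CPM. In at least 1 alternative the ratio took the other sign for 11 of the 21 genes: Xylt1, Xylt2, B4galt7, B3gat3, Chsy1, Chst11, Chst12, Gusb, Ids, Sgsh and Naglu. Chst15, at 3.12 and 1.17 CPM, was too low to count as measured and had a ratio of -1.41 (-1.79 to -1.04).

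In stromal cells the median log2 ratio was -0.06 over 18 measured synthesis genes and -0.10 over 6 measured breakdown genes, against -0.03 over all 9229 genes measured, of which 0.921% were higher and 2.09% lower beyond 1.5-fold. With each cell thinned to 3000 UMIs the breakdown median was 0.33. Csgalnact1 had the highest ratio, from 97.3 to 151 CPM (0.64, 0.54 to 0.73), and its interval began below the limit of 1.5-fold. The ratio was in the same direction in both stromal clusters. It was followed by Chsy3, from 62.1 to 86.6 CPM (0.48, 0.36 to 0.60), and Dse, from 88.6 to 111 CPM (0.33, 0.23 to 0.43). At the other end stood Chst15, from 18.2 to 12.5 CPM (-0.54, -0.78 to -0.29), Csgalnact2 (-0.30, -0.42 to -0.17) and Ids (-0.25, -0.46 to -0.03). With each cell thinned to 3000 UMIs Csgalnact2 stood at 0.31 and Ids at 0.63. Thinning kept 3000 UMIs from each of 221 and 652 cells, where class medians were 46391 and 53897 UMIs. The thinned stromal values here and below therefore rest on far fewer UMIs and stand without intervals. The part of counting error in them was not tested.

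The remaining stromal ratios were smaller. Galns stood at 0.18, Sulf1 at 0.11 (0.06 to 0.16), Chsy1 at 0.07, B3gat3 at 0.06, Chst12 at 0.05, Hexa at 0.03 and Dsel at 0.02. Below 0 were Chpf (-0.01), Naglu (-0.02), Xylt2 (-0.04), B4galt7 (-0.08), Ust (-0.09), Chst11 (-0.10), Chpf2 (-0.13), Xylt1 (-0.17), Fam20b (-0.18), Arsb (-0.19), Gusb and Sulf2 (each -0.20) and Chst14 (-0.21). The classes differed in depth: 20 of 241 stromal cells in Gel100 and 3 of 655 in Gel50_CS50 had fewer than 3000 UMIs. The ratio of Csgalnact1 was 0.70 and passed the limit both with 50 principal components and with classes from marker gates, was 0.72 and passed it with a common mix of clusters, and was 0.49 where each cell was thinned to 3000 UMIs. In at least 1 alternative the ratio took the other sign for 12 of the 26 genes, which besides Csgalnact2 and Ids were Xylt2, B3gat3, Fam20b, Chsy1, Chpf, Chpf2, Chst14 (0.39 with thinned cells), Dsel, Hexa and Naglu.

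**Figure D5:**
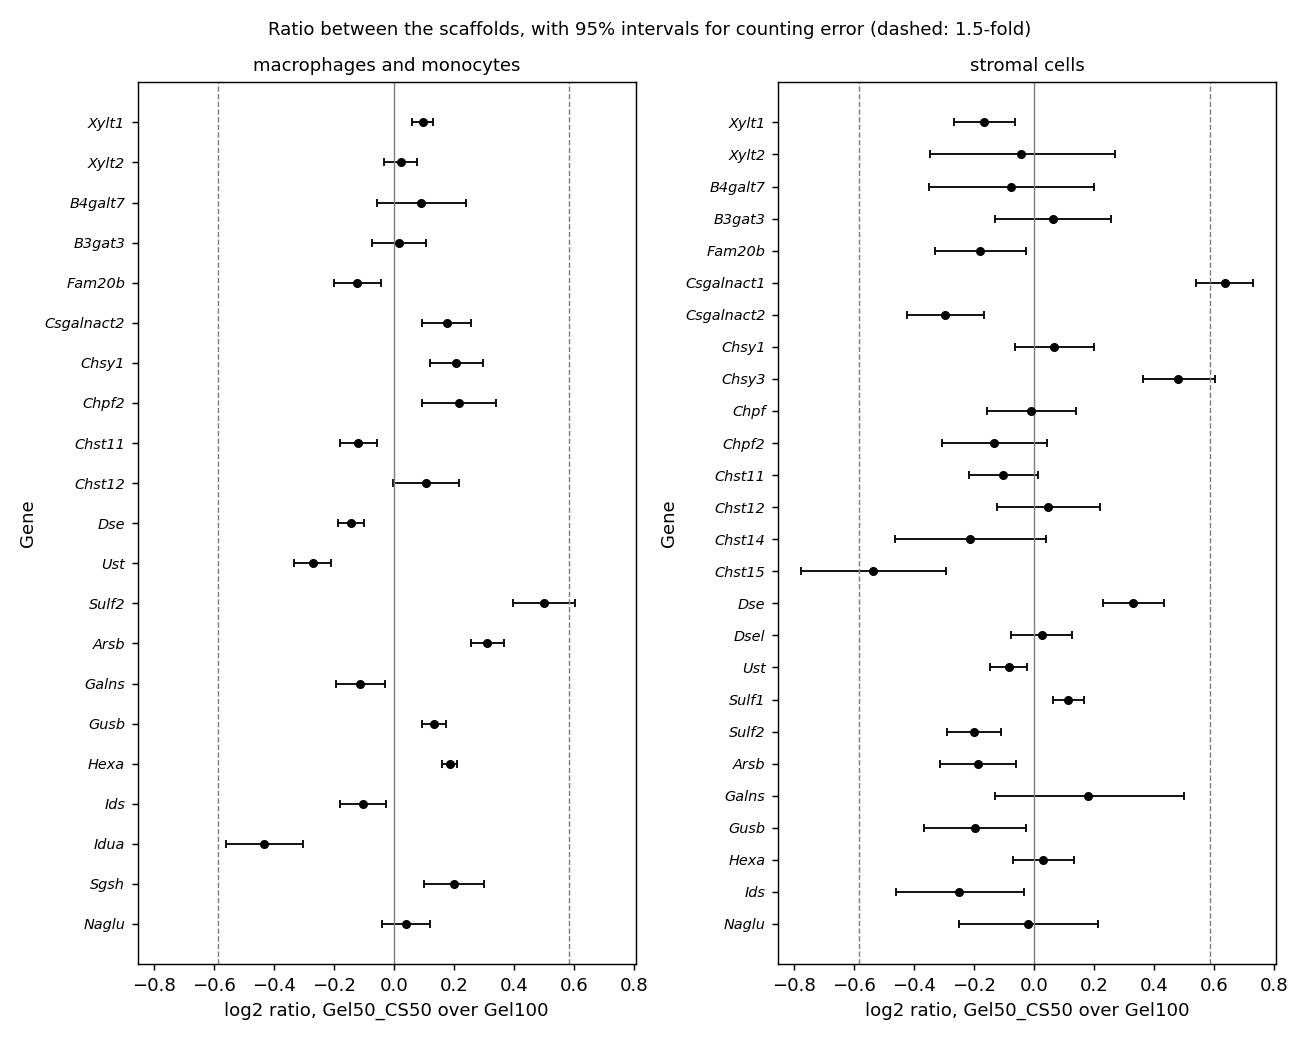
log2 ratio of Gel50_CS50 over Gel100 for the measured genes in macrophages and monocytes (left) and stromal cells (right), with 95% intervals for counting error and dashed lines at 1.5-fold. No interval lies wholly past a dashed line, and the widest departures are Sulf2 and Idua on the left and Csgalnact1, Chst15 and Chsy3 on the right.

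In conventional dendritic cells the highest ratios were those of Chst11, from 156 to 224 CPM (0.52, 0.41 to 0.64), Xylt1, from 132 to 189 CPM (0.52, 0.39 to 0.64), and Sulf2 (0.49, 0.21 to 0.77), where 1.40% of all genes were higher and 1.63% lower beyond 1.5-fold. Chst11 stood at 401 and 596 CPM in the Ccr7 cluster, 36.8 and 98.1 CPM in the Xcr1 cluster and 110 and 111 CPM in the Cd209a cluster, which held 33.8% and 28.2%, 30.2% and 20.5%, and 36.0% and 51.3% of the class. Without the Cd209a cluster its ratio was 0.87 and past the limit, an alternative chosen after seeing the data. The lowest ratios were those of Csgalnact1, from 19.8 to 13.5 CPM (-0.55, -0.96 to -0.15), Arsb (-0.53, -0.63 to -0.44) and Chsy3 (-0.47, -0.66 to -0.28). Within the Xcr1 cluster Csgalnact1 stood at 53.7 and 51.8 CPM and Chsy3 at 220 and 211 CPM. Where both libraries were given one common mix of clusters the ratios were -0.09 for Csgalnact1, -0.07 for Chsy3, -0.36 for Arsb, 0.22 for Sulf2 and 0.51 for Chst11.

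Neutrophils had the highest ratios in Chsy1, from 36.0 to 51.7 CPM (0.52, 0.16 to 0.89), Chst11, from 646 to 922 CPM (0.51, 0.43 to 0.60), and Xylt1 (0.20, 0.13 to 0.27), in a class where 1.57% of all genes were higher and 3.26% lower beyond 1.5-fold. Fam20b, from 19.8 to 11.1 CPM (-0.83, -1.44 to -0.23), Arsb, from 34.9 to 22.9 CPM (-0.61, -1.04 to -0.18), and Csgalnact2 (-0.60, -1.04 to -0.16) were lowest. With the unnamed cluster of neutrophil genes joined, an alternative chosen after seeing the data, the ratios were 0.07 (-0.28 to 0.43) for Chsy1, 0.19 (0.11 to 0.27) for Chst11 and -0.03 (-0.10 to 0.03) for Xylt1. The summed stromal markers in this class were 111 and 390 CPM and the macrophage markers 4211 and 4366 CPM, and their part in these ratios was not tested. Chst11 had the same direction in the cluster led by Cxcr2 (738 and 969 CPM) and in the granule-gene cluster led by Ltf (236 and 420 CPM). Chsy1 stood at 30.8 and 51.8 CPM in the first of these and at 59.5 and 49.8 CPM in the second.

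In T and NK cells Sulf2 was the 1 member past the limit, from 57.0 to 32.0 CPM (-0.83, -1.07 to -0.59), where 0.892% of all genes were higher and 1.03% lower beyond it. Hexa (-0.61, -0.92 to -0.30) and Arsb, from 594 to 418 CPM (-0.50, -0.57 to -0.44), were next lowest. The NK cluster led by Ncr1 made up 42.8% of the class in Gel100 and 41.7% in Gel50_CS50. A dividing cluster led by Gzmc and Top2a, which also scored highest for the NK markers, made up 21.4% and 6.69%. Levels were 99.5 and 64.5 CPM for Sulf2 and 935 and 793 CPM for Arsb in the Ncr1 cluster, and 42.5 and 40.5 CPM and 656 and 590 CPM in the dividing one. The dividing cluster held 235 and 34 cells, with medians of 1536 and 25836 UMIs per cell, so its libraries are not alike in depth. Sulf2 stayed below 0 in the 11 alternatives that recomputed it, at -0.84 to -0.59, but was no longer past the limit in 7 of them, among these doublets kept, marker gates, thinned cells and a common mix of clusters (-0.59). The 12 macrophage markers summed to 1336 and 776 CPM in this class, and their part in the ratio of Hexa, a macrophage-high gene, was not tested. The highest ratios were those of Csgalnact1 (0.59, 0.30 to 0.87), Csgalnact2 (0.37, -0.00 to 0.74) and Dse (0.29, -0.03 to 0.61). The Il17a cluster, 9.21% and 17.7% of the class, and the Foxp3 cluster, 7.02% and 13.4%, carry most Csgalnact1 per UMI, and with a common mix of clusters its ratio was 0.11 and that of Arsb -0.22. In plasmacytoid dendritic cells Chst11 (0.50, 0.06 to 0.94), Arsb (0.45, 0.24 to 0.67) and Chst15 (0.40, 0.11 to 0.69) were highest, and Dse (-0.65, -0.91 to -0.40), Chsy1 (-0.42, -0.68 to -0.16) and Fam20b (-0.35, -0.55 to -0.15) were lowest, where 0.812% of all genes were higher and 0.412% lower beyond 1.5-fold. The 9 neutrophil markers summed to 80.5 and 486 CPM and the 10 stromal markers to 46.1 and 144 CPM in this class, and their part in the ratio of Chst11, from 12.8 to 18.1 CPM, was not tested.

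Genes of the wider pathway were read in the same way from 5 lists. These were 12 heparan sulfate synthesis genes, 15 found of 17 symbols for sugar and sulfate donors, and 8 found of 9 symbols for hyaluronan. The other lists were 20 other lysosomal genes of glycan breakdown, and 10 keratan sulfate and other sulfotransferases. In macrophages 0 of 9 measured heparan sulfate genes and 0 of 18 other lysosomal genes passed 1.5-fold, where 5.74% of all genes did, with medians of 0.06 and -0.02. Papss2, an enzyme that makes the sulfate donor PAPS, was the 1 of 13 donor genes that did, from 13.3 to 21.8 CPM (0.71, 0.59 to 0.83). Tpst1, which sulfates tyrosines of proteins, was 1 of 2 measured in the last list and was lower, from 42.8 to 25.4 CPM (-0.75, -0.84 to -0.67). It was also lower in neutrophils, as 1 of 2 measured there where 4.83% of all genes passed, from 20.2 to 4.25 CPM on 52 and 18 UMIs (-2.25, -3.11 to -1.45).

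In stromal cells 1 of 14 donor genes passed the limit, where 3.01% of all genes did: Gfpt2, which starts the route to amino sugars, from 362 to 218 CPM (-0.73, -0.79 to -0.68). So did 1 of 6 hyaluronan genes, the receptor Cd44, which was lower (-1.22, -1.25 to -1.19). Heparan sulfate synthesis had 0 of 9 there with a median of -0.14, and other lysosomal genes 0 of 19 with a median of -0.07. In T and NK cells and in both kinds of dendritic cells 0 genes of the 5 lists passed. At these list sizes the counts lie near the background.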

How the data were processed

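Per the labels' protocols, 3' libraries were made with 10x Chromium v3 reagents. Per the file headers the deposited UMI counts, 1 matrix per library, were made by the authors with Cell Ranger 6.0.2, and per the submitters' processing notes with build mm10; the annotation release is not named there. The members and the lists were chosen with earlier results of these data known.

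Barcodes with at least 200 genes, 500 UMIs and under 20% mitochondrial UMIs were kept (65 of 7845 in Gel100 and 117 of 7515 in Gel50_CS50 were removed), and simulated doublets were scored in each library, which removed 179 (2.30%) and 192 (2.60%). Cells were clustered with scanpy 1.11.5 and leidenalg 0.10.2 (3000 variable genes, 30 principal components, 15 neighbours, resolution 1.0), and clusters were named from marker lists. UMIs were summed per class and library. Ratio intervals are exact conditional binomial, level intervals exact Poisson and share intervals Clopper-Pearson, all at 95% and covering counting error only; a count of 0 is given the limit of 3 counts. The ratio step was tested on simulated counts. Exons came from GENCODE vM21 (99.85% of gene IDs found) and promoters from RefSeq.

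Every member is accounted for: measured members are named in macrophages and stromal cells, and in each other main class the 3 with the largest and the 3 with the smallest ratio. Wider pathway genes are named where past 1.5-fold, at most 5 per direction and class. Alternatives changed filters, clustering, class gates, depth, weighting, scaling and limits.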

Additional observations from a re-analysis of the deposited data

How the results depend on the processing

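Counts were taken as kept within 1.5 times, and ratios and medians as kept inside the counting interval of the reported value. Of 161 alternative values of the summary results, 132 were kept and 29 moved. Of 545 alternative values for single members, 462 were kept and 83 moved. A change of sign past the 1.5-fold limit could be scored only for Sulf2 in T and NK cells, the 1 member reported past it. It did not occur there. Values short of the limit did change sign in at least 1 alternative: 11 of 21 macrophage and 12 of 26 stromal ratios, and each of the 4 medians (the stromal synthesis median was 0.025 over genes of at least 50 CPM). No paired analysis was possible because each scaffold is 1 pooled library and both labels carry the same replicate number. Members highest in stromal cells in both libraries went from 9 to 4 once endothelial cells, pericytes and mast cells were compared too, an alternative chosen after seeing the data.

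In macrophages the count past 1.5-fold became 1 without a CPM limit (Chst15, -1.41). The macrophage synthesis median was -0.12 over genes of at least 50 CPM, where the breakdown median was 0.19, and the breakdown median was -0.063 with a common mix of clusters. The stromal breakdown median was 0.33 with cells thinned, on far fewer UMIs and without an interval, and -0.38 with cells weighted equally. In stromal cells the count was 1 with 50 principal components, with marker gates, with a common mix of clusters and by point ratio (Csgalnact1 each time), and 1 without a CPM limit (Chst3, -2.76, on 16 and 8 UMIs).

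In neutrophils it was 2 with 50 principal components (Dse, 1.33, and Arsb, 1.05), 1 at resolution 2.0 (Galns, -1.72), 1 with each library clustered alone (Chst11, 0.72) and 3 by point ratio. In T and NK cells it was 0 with doublets kept, with a mitochondrial limit of 10%, at resolution 2.0, with marker gates, with cells thinned, with a common mix of clusters and over genes of at least 50 CPM, 2 without a CPM limit (Sulf2, and Chsy3 at 1.57) and 3 by point ratio; with libraries clustered alone it was 1, but of Hexa (-1.25) in place of Sulf2. In conventional dendritic cells it was 2 with cells weighted equally (Xylt1, 0.78, and Csgalnact1, -1.06) and 1 without the Cd209a cluster (Chst11, 0.87), the latter chosen after seeing the data. In plasmacytoid dendritic cells it was 1 without a CPM limit (Sulf2, 2.999, on 2 and 10 UMIs) and 1 by point ratio (Dse, -0.65). The cause of these moves was not tested. The other alternatives chosen after seeing the data, without the macrophage clusters led by Spp1 and Mmp12 and with the unnamed neutrophil-gene cluster joined to the neutrophils, left both counts at 0.

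Depth limits the members with few UMIs, Chst3, Chst7, B3galt6, Hyal1 and Hyal2 among them, and the small classes most. With 1 pooled library per scaffold, the scaffold, the pool of mice and the library cannot be told apart.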

Other observations

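The small classes outside the comparisons gave further values, each on 14 to 64 cells per library. Endothelial cells had 216 and 213 CPM of Csgalnact1 and 41.0 and 19.7 CPM of Chst7, with 162 and 102.6 CPM of Xylt1. Their Ust level was 7.13 and 30.8 CPM on 4 and 39 UMIs, while the stromal markers in that class summed to 112 and 3086 CPM. Pericytes or smooth muscle cells had 415 and 343 CPM of Sulf1, 83.0 and 174 CPM of Chsy3 and 33.2 and 93.9 CPM of Csgalnact1, with stromal markers at 5756 and 15424 CPM. Mast cells or basophils had 480 and 545 CPM of Xylt1 on 22 and 67 UMIs, and 131 and 48.8 CPM of Chst15 on 6 UMIs in each library.

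Among clusters that stayed unnamed, the one led by Lcn2 and Il1f9 (35 and 502 cells) had 1087 and 684 CPM of Xylt1 and 707 and 419 CPM of Chst11. Inside the macrophage class, Chst11 stood at 81.0 and 56.1 CPM in the Spp1 cluster, and Ust at 44.2 and 41.8 CPM in the Ifit1bl1 cluster.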
